A study of Mus musculus with 6 samples.

Results

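The 8 scavenger receptor genes Marco, Msr1, Colec12, Cd36, Scarb1, Olr1, Stab1 and Cd163 were followed in mouse macrophages that had been exposed to tumour cells and then to β-elemene, a plant sesquiterpene. They were chosen by name, and all 8 were found among the 21878 genes of the count table. The macrophages were grown from the bone marrow of wild-type (WT) C57BL/6 mice in 50 ng/mL macrophage colony-stimulating factor. In both groups they were first kept for 48 h near cells of the mouse lung carcinoma line LLC, separated by a transwell with 0.4 µm pores. After a change of medium, 1 group received β-elemene at 100 µg/mL for 24 h (3 libraries), and the other the same volume of the vehicle, phosphate-buffered saline (PBS), for 24 h (3 libraries). The age and sex of the mice are not given in the labels, nor whether the 3 libraries of a group came from separate mice or cultures, so p-values measure only the spread between these samples, which may be technical.

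Scavenger receptors are surface proteins of unrelated folds, grouped in classes, that bind modified lipoproteins, microbes, dying cells and other polyanionic cargo and carry it into the cell. Class A members are trimers with a collagen-like stalk, and class B members cross the membrane at both ends and take up lipids. Macrophages use them to clear debris, and uptake of modified low-density lipoprotein through them turns macrophages into foam cells. In the GO annotation of the deposited table, 5 of the 8 (Msr1, Colec12, Cd36, Scarb1 and Stab1) carry the term low-density lipoprotein particle binding, which 19 genes of the table carry. The 3 class A genes share the term collagen trimer. Only 3 of the 8 (Marco, Stab1 and Cd163) carry the term scavenger receptor activity, which 44 genes of the table carry.

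The genes did not move as a block. With β-elemene the class A genes Marco and Msr1 were higher, and Scarb1 of class B, Olr1 and Stab1 were lower. Cd36 differed by less than the test could call, but this result and the small difference of Colec12 depended on how libraries were scaled. Cd163 was close to the limit of counting in both groups. Values are read counts relative to library size (CPM) after TMM scaling, which corrects for differences in composition. A log2 fold change above 0 means a higher level with β-elemene than with PBS, and is given with its standard error (SE). Total counts per library lay between 18916844 and 20550078 with β-elemene, and between 20524959 and 20729887 with PBS. Where a library shows no read of a gene, counting error still allows 3 counts, or 0.184 to 0.195 CPM with β-elemene and 0.116 to 0.117 CPM with PBS. Of the 8 genes, 7 passed the filter on low counts, and of these 3 were higher, 3 were lower and 1 did not pass the test (edgeR quasi-likelihood test, Benjamini-Hochberg adjustment over all genes tested, threshold 0.05). Over all 11459 genes tested, 76.7% passed, 36.6% higher and 40.2% lower, so the share of receptors called is near the background. At least 2-fold changes were called for 5 of the 7, against 35.3% of all genes, and 6 of the 7 had groups that did not overlap, against 79.9% of all genes. Marco passed the filter only through the group in which it was high, so these counts describe the 7 genes and are no evidence about the family. The median log2 fold change was -0.04 over the 7 genes and -0.06 over all genes tested.

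**Figure D1:**
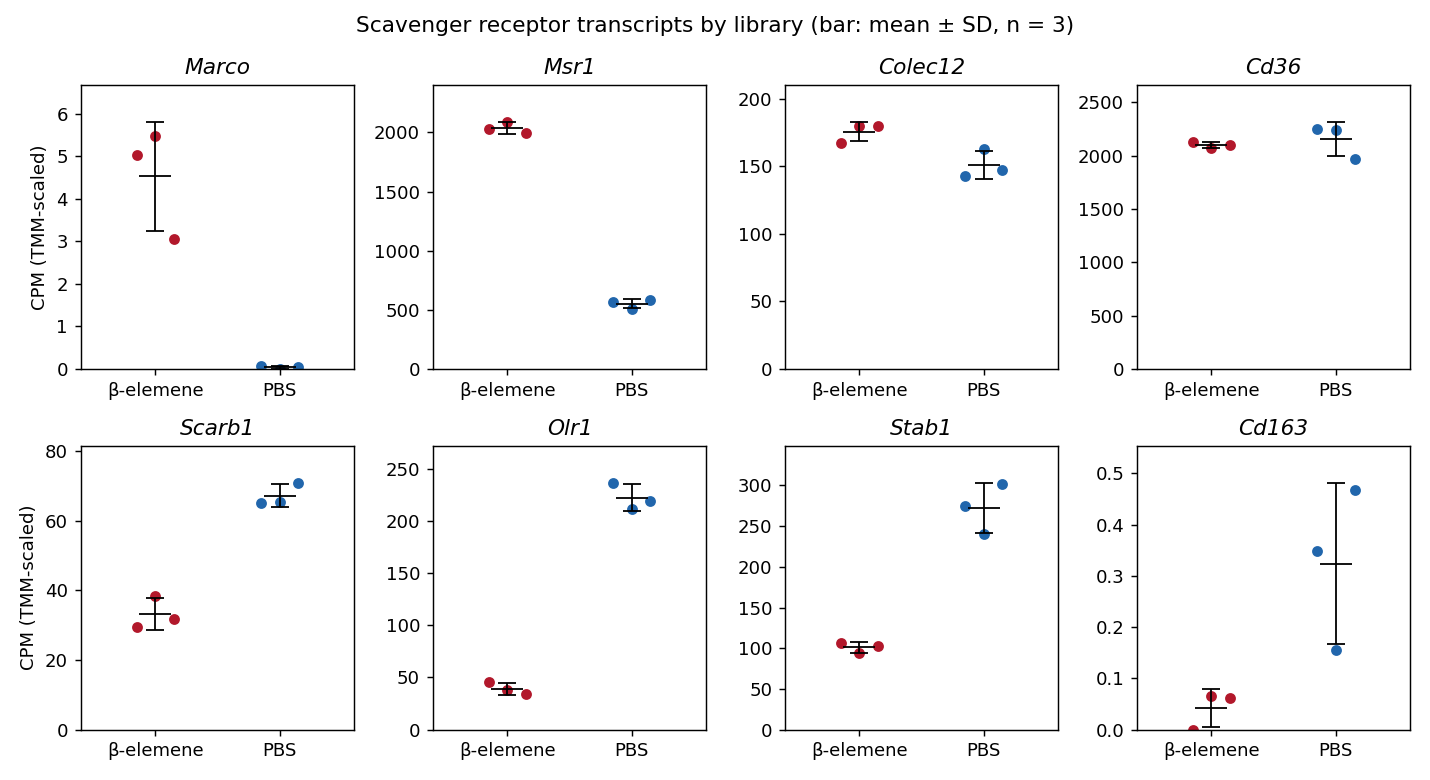
Expression of the 8 genes in each library, in TMM-scaled CPM on linear axes that start at 0, with β-elemene on the left of each panel and PBS on the right. Points are libraries, and the bars give mean ± SD of 3 libraries. Msr1 lies at 1991 to 2089 CPM with β-elemene and at 510 to 579 CPM with PBS, while the 2 groups of Cd36 overlap.

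Among the class A receptors, Marco, a receptor for unopsonised bacteria and particles (chromosome 1, 120474538 to 120505024, minus strand, GRCm38.p6), had the largest difference of the 7 tested genes. It had 82, 84 and 50 counts in the β-elemene libraries, against 2, 0 and 1 in the PBS libraries. These counts correspond to 5.04, 5.47 and 3.06 CPM with β-elemene, and to 0.0774, 0 and 0.0390 CPM with PBS. All PBS libraries lay below the level that 3 counts give, and the groups did not overlap. Over the groups the 216 counts with β-elemene and the 3 counts with PBS gave a scaled ratio of 116, with an exact 95% binomial interval of 39.2 to 567 that covers counting error only (edgeR adjusted p = 3.73e-08). Because Marco passed the filter only through the β-elemene libraries, that p-value is given as a description. PBS replicate 1 held 2 of the 3 PBS counts, and leaving out PBS replicate 1 took the fitted log2 fold change to 7.46, against 6.66 with all libraries, though a fitted value at such counts is no bound.

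The 250 bases before the annotated start of Marco are shown because this gene had the largest rise, and those of Olr1 and Stab1 because these genes fell together. They come from the RefSeq windows of build GRCm38.p6, which held 5 of the 8 genes. The window of Marco is chr1:120505025-120505274, that of Olr1 is chr6:129507166-129507415 and that of Stab1 is chr14:31168642-31168891, each on the minus strand and written 5′ to 3′ in its gene's direction. The windows of Olr1 and Stab1 adjoin the starts of these genes in the GENCODE M21 annotation, at 129507165 and 31168641. The spans given below for these genes reach further, to 129507350 and 31168651, so part of each window lies inside its gene's span. All matches of Olr1 lie inside the span given for Olr1, while those of Stab1 lie outside the span given for Stab1. Capitals mark matches to any of 8 motifs.
Marco: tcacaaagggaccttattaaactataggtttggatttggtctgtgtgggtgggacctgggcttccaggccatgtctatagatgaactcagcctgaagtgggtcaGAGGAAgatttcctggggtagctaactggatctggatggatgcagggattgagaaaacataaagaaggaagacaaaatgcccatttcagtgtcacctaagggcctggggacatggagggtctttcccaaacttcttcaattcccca
Olr1: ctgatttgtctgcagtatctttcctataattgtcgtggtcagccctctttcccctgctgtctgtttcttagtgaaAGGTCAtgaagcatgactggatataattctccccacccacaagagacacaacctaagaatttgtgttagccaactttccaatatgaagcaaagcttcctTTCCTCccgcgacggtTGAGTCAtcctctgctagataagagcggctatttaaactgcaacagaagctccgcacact
Stab1: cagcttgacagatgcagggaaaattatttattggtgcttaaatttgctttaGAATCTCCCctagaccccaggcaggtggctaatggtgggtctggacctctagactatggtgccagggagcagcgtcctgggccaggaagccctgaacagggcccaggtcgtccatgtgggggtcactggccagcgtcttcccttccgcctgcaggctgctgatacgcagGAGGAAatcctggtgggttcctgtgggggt
The motifs were searched on both strands. They were GGGANNTTC (part of the NF-kB site), GAAANNGAA (part of the interferon-stimulated response element), TGANTCA (AP-1), GAGGAA (PU.1), TGACNNNGC (NRF2), AGGTCA (the half-site of PPAR and related nuclear receptors), TTGCNNAA (C/EBP) and CACGTG (MITF and TFE factors). Marco, Olr1 and Stab1 each held 1 match to the PU.1 letters, which 23.3% of all 32851 RefSeq windows hold. Olr1 alone of the 3 held the AP-1 letters, at bases -60 to -54 from the start, and the half-site, at -175 to -170, which stand in 6.75% and 14.0% of all windows. Stab1 alone of the 3 held the NF-kB part, at -199 to -191, which 3.23% of all windows hold. No matches overlapped. A match is a description of the letters, and no binding was measured.

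Msr1 encodes the class A macrophage scavenger receptor, which takes up acetylated and oxidised lipoprotein (chromosome 8, 39543232 to 39642750, minus strand). It stood at 2032, 2089 and 1991 CPM in the β-elemene libraries, against 567, 510 and 579 CPM in the PBS libraries. Every β-elemene library was above every PBS library. The mean was 2037 ± 48.8 CPM with β-elemene and 552 ± 36.9 CPM with PBS (SD, n = 3 each), a 3.69-fold rise or 1.88 on the log2 scale (SE 0.07, edgeR adjusted p = 2.28e-11). Because the RNA is from whole cultures, more cells that carry a transcript and more of it per cell cannot be told apart, and the same holds for every fall below.

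Colec12, the third class A gene, encodes a collectin with a carbohydrate-binding domain that is also known from endothelial cells (chromosome 18). It stood at 167, 180 and 180 CPM with β-elemene, against 143, 163 and 147 CPM with PBS. The groups lay close together without overlapping. The log2 fold change was 0.22 (SE 0.06, edgeR adjusted p = 0.00562), but its sign rests on the scaling. It was -0.10 with upper quartile scaling (adjusted p = 0.168) and -0.42 with library size alone (adjusted p = 2.22e-05; range over all alternatives 2.22e-05 to 0.168). Library size alone puts the median of all genes at -0.70, and relative to the median of all genes Colec12 was 0.28 higher under both scalings. Within each library, the count ratio of Msr1 to Colec12, which no scaling changes, was 12.1, 11.6 and 11.1 with β-elemene, against 3.97, 3.13 and 3.94 with PBS. The ratio was 11.6 ± 0.539 with β-elemene and 3.68 ± 0.473 with PBS (SD, n = 3 each; exact two-sided permutation p = 0.10, the smallest that 3 against 3 can give).

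**Figure D2:**
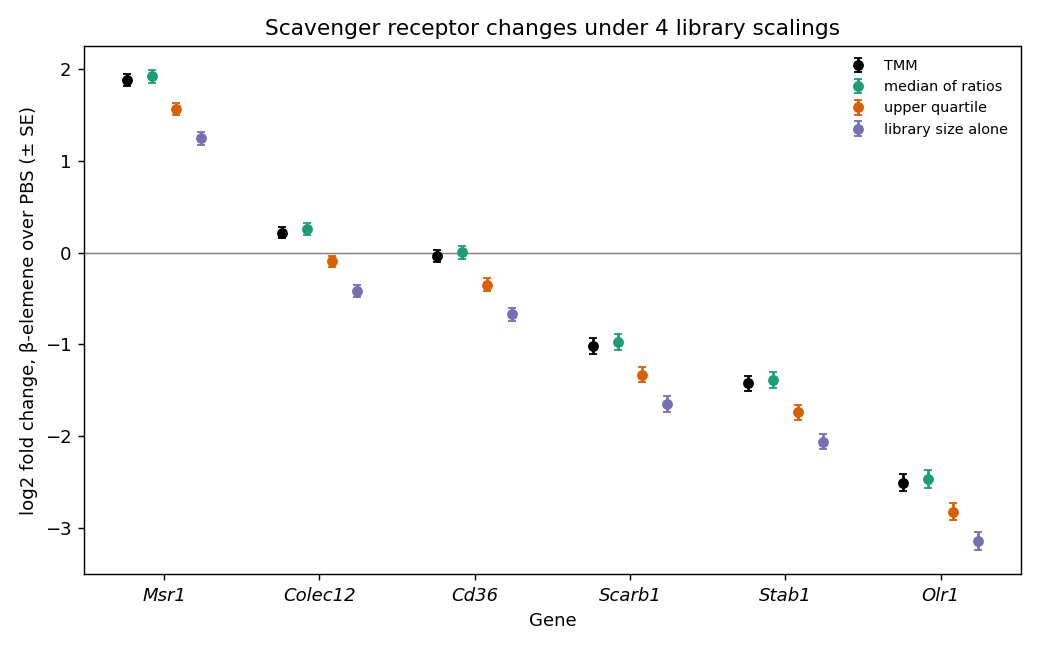
Log2 fold changes, β-elemene over PBS, of 6 tested receptor genes under 4 library scalings, with SE bars. Marco is left out because its PBS counts are too few for a fitted fold change. Msr1 stays above 0 and Scarb1, Stab1 and Olr1 stay below 0 under the 4 scalings, while Colec12 runs from 0.26 with median-of-ratios size factors to -0.42 with library size alone and Cd36 from 0.00 to -0.67.

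The class B genes diverged from each other. Cd36, which imports long-chain fatty acids and oxidised lipoprotein and binds thrombospondin (chromosome 5, 17781690 to 17888959, minus strand), stood at 2129, 2076 and 2100 CPM with β-elemene, against 2252, 2243 and 1969 CPM with PBS. PBS replicate 3 lay below all β-elemene libraries and the other PBS libraries lay above them. The log2 fold change was -0.04 (SE 0.07, 95% interval -0.23 to 0.16 from a t distribution with 4 degrees of freedom, edgeR adjusted p = 0.648). This value rests on the scaling as well. Upper quartile scaling gave -0.35 (adjusted p = 0.000431) and library size alone gave -0.67 (adjusted p = 6.26e-07), where 57.0% and 69.8% of all genes were called lower. Relative to the median of all genes, Cd36 was 0.02 higher under TMM and under library size alone.

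Scarb1, the receptor for high-density lipoprotein that exchanges cholesterol with it (chromosome 5, 125277087 to 125341094, minus strand), fell. It stood at 29.6, 38.5 and 31.7 CPM with β-elemene, against 65.2, 65.4 and 70.9 CPM with PBS. The groups did not overlap. The mean was 33.3 ± 4.64 CPM with β-elemene and 67.2 ± 3.27 CPM with PBS (SD, n = 3 each), which is 2.02-fold lower or -1.02 on the log2 scale (SE 0.09, edgeR adjusted p = 2.20e-07). The count ratio of Cd36 to Scarb1 was 72.0, 54.0 and 66.1 with β-elemene, against 34.6, 34.3 and 27.8 with PBS (exact two-sided permutation p = 0.10, the smallest possible). Every β-elemene library thus held more Cd36 reads per Scarb1 read than every PBS library.

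Olr1 encodes the lectin-like class E receptor for oxidised low-density lipoprotein (chromosome 6, 129479150 to 129507350, minus strand). It stood at 45.3, 37.7 and 33.8 CPM with β-elemene, against 236, 211 and 219 CPM with PBS. The highest β-elemene library was far below the lowest PBS library. The mean was 38.9 ± 5.86 CPM with β-elemene and 222 ± 13.0 CPM with PBS (SD, n = 3 each), a 5.70-fold fall or -2.51 on the log2 scale (SE 0.09, edgeR adjusted p = 3.58e-10). Olr1 had the largest fall of the tested receptors. The count ratio of Olr1 to Msr1, both receptors for oxidised lipoprotein, was 0.0223, 0.0181 and 0.0170 with β-elemene, against 0.417, 0.414 and 0.378 with PBS.

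Stab1 encodes stabilin-1, a class H receptor of tissue macrophages and sinusoidal endothelium that clears SPARC and modified lipoprotein (chromosome 14, 31139017 to 31168651, minus strand). It stood at 107, 94.2 and 102 CPM with β-elemene, against 275, 240 and 302 CPM with PBS. The β-elemene libraries lay within a narrow range and all below the PBS libraries. The mean was 101 ± 6.44 CPM with β-elemene and 272 ± 31.1 CPM with PBS (SD, n = 3 each), a 2.69-fold fall or -1.43 on the log2 scale (SE 0.08, edgeR adjusted p = 9.45e-09). The end of Stab1 overlaps Nt5dc2 on the opposite strand by 112 bases in the GENCODE M21 annotation, and reads there cannot be told apart where counting did not use strand. Nt5dc2 held 2578 counts over the 6 libraries and also fell (log2 fold change -1.48, edgeR adjusted p = 3.94e-09), while Stab1 held 4857 counts in the β-elemene group and 21020 in the PBS group.

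Cd163, the class I receptor for haptoglobin bound to haemoglobin (chromosome 6, 124304636 to 124330529, plus strand), did not pass the filter and was not tested. It had 0, 1 and 1 counts with β-elemene, against 9, 4 and 12 counts with PBS. In CPM these were 0, 0.0651 and 0.0613 with β-elemene, against 0.348, 0.155 and 0.468 with PBS, so the β-elemene libraries were all under the limit that a count of 0 allows. The 2 counts with β-elemene and the 25 counts with PBS gave a scaled ratio 7.76-fold lower with β-elemene, with an exact 95% binomial interval of 1.93 to 67.6 for counting error only. Without a filter, the fit gave it -2.80 on the log2 scale (SE 0.98, edgeR adjusted p = 0.0136).

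Levels of different genes were compared per length, as CPM per kilobase of all annotated exons in GENCODE M21. With β-elemene the order was Cd36 at 585 ± 7.43, Msr1 at 321 ± 7.69, Colec12 at 20.1 ± 0.828, Olr1 at 10.9 ± 1.64, Stab1 at 9.83 ± 0.626, Scarb1 at 3.91 ± 0.545, Marco at 2.35 ± 0.666 and Cd163 at 0.00771 ± 0.00669 CPM per kilobase (SD, n = 3). Olr1 and Stab1 did not differ beyond their spread in that group. With PBS the order was Cd36 at 600.3 ± 44.8, Msr1 at 87.0 ± 5.81, Olr1 at 62.2 ± 3.63, Stab1 at 26.5 ± 3.02, Colec12 at 17.3 ± 1.20, Scarb1 at 7.90 ± 0.384, Cd163 at 0.0593 ± 0.0289 and Marco at 0.0202 ± 0.0201 CPM per kilobase (SD, n = 3). Cd163 and Marco lay under or near the limit of counting there. Cd36 and Msr1 held the first and second place in both groups, and Olr1 stood in the third place with PBS and in the fourth with β-elemene. Exons that these cells do not use lower such a value. With the longest transcript in place of all exons, an alternative chosen after seeing the data, Msr1 stood at 560.4 CPM per kilobase with β-elemene and 152 with PBS, and Scarb1 at 10.8 with β-elemene and 21.7 with PBS. That length put Stab1 (12.6) above Olr1 (10.9) with β-elemene and Scarb1 (21.7) above Colec12 (18.8) with PBS, so the order of these neighbours rests on the length used.

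The split of reads among the 8 genes shifted from Cd36 towards Msr1. Msr1 took 45.3% ± 0.750 of their summed reads with β-elemene and 16.2% ± 1.38 with PBS. Cd36 took 46.8% ± 0.744 with β-elemene and 63.0% ± 2.79 with PBS (SD, n = 3 each). These shares are of reads, which long transcripts weigh upward, and no scaling enters them. Olr1 took 0.866% ± 0.125 with β-elemene and 6.50% ± 0.302 with PBS, and Stab1 took 2.25% ± 0.149 with β-elemene and 7.98% ± 1.11 with PBS. For these 4 genes the groups did not overlap. The count ratio of Msr1 to Cd36 was 0.955, 1.01 and 0.948 with β-elemene, against 0.252, 0.227 and 0.294 with PBS (exact two-sided permutation p = 0.10, the smallest possible). Together the 8 genes took 0.360% ± 0.00726 of all counts with β-elemene and 0.427% ± 0.0186 with PBS, a share that is scaled by library size alone. The direction of this sum turned with TMM, where the 8 genes summed to 4493 ± 43.7 CPM with β-elemene and 3419 ± 126 CPM with PBS (SD, n = 3 each).

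**Figure D3:**
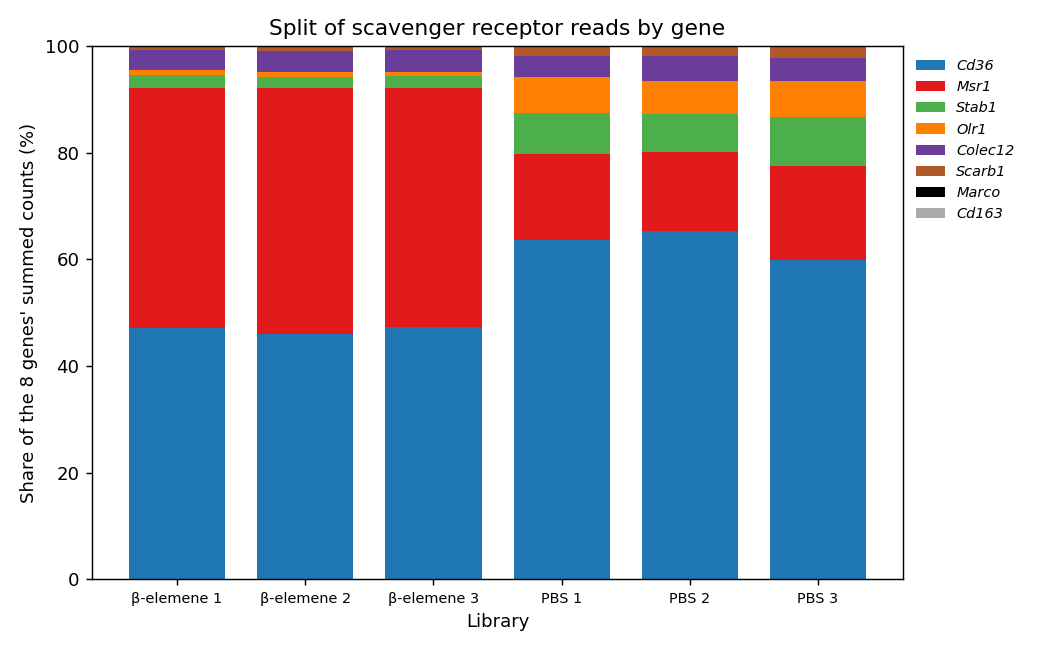
Share of the summed counts of the 8 genes held by each gene, in percent, as stacked bars from 0 for the 3 β-elemene libraries on the left and the 3 PBS libraries on the right. Msr1 takes between 44.8% and 46.2% with β-elemene and between 14.9% and 17.6% with PBS. Marco and Cd163 are too rare to be seen.

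Replicates were tight for the abundant receptors. The coefficient of variation of CPM was 1.27% with β-elemene and 7.47% with PBS for Cd36, and 2.40% with β-elemene and 6.68% with PBS for Msr1. It was 15.1% with β-elemene and 5.84% with PBS for Olr1, and 28.3% with β-elemene for Marco, where β-elemene replicate 3 was the lowest. The genes whose profile over the 6 libraries was most like that of Olr1, by the root mean square difference of centred log2(CPM + 0.125), were Zfyve28 (0.0941), Trim47 (0.0949) and Ppp2r3a (0.0995) among 10404 genes searched. Those most like Cd36 were Actl6a (0.0291), Asb8 (0.0354) and Anapc7 (0.0367). With 2 groups, genes with the same difference between groups score as alike.

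Scavenger receptor genes beyond the 8 were read from a list of 22, of which 14 were tested. Of these, 9 were higher, 3 were lower and 2 did not pass, with a median log2 fold change of 0.66 against -0.06 over all genes. Over all genes tested 76.7% were called, 36.6% higher and 40.2% lower. With library size alone 6 of the list were higher, 5 were lower and 3 did not pass, while 18.9% of all genes were higher and 69.8% lower. Scarf1, a class F receptor first known from endothelial cells, rose to 191 ± 4.87 CPM with β-elemene, against 40.3 ± 0.684 CPM with PBS (SD, n = 3 each; log2 fold change 2.24, SE 0.05, edgeR adjusted p = 4.23e-13). Its relative Scarf2 rose by a log2 fold change of 2.96. Scarf2 held only 206 counts with β-elemene and 42 with PBS (SE 0.31), and passed the filter only through the β-elemene group. The secreted scavenger receptor cysteine-rich proteins Ssc5d and Lgals3bp rose by 1.95 and 1.69. Scarb2, the class B relative of Cd36 and Scarb1 that resides in lysosomes, rose by 0.98 and the hyaluronan receptor Cd44 by 0.88. Ssc4d rose by 0.80, a call lost with library size alone (0.17, edgeR adjusted p = 0.571). Cxcl16, a chemokine whose membrane form binds oxidised lipoprotein, and Cd68, an endosomal glycoprotein, were called higher by 0.52 and 0.25, but their signs turned with library size alone, at -0.12 and -0.39.

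The 3 genes of that list that fell did so under both scalings. Mrc1, the mannose receptor, stood at 93.9 ± 7.87 CPM with β-elemene and 2342 ± 103 CPM with PBS, and Clec7a, the β-glucan receptor dectin-1, at 221 ± 13.7 CPM with β-elemene and 1702 ± 66.2 CPM with PBS. Lrp1, a large endocytic receptor for many ligands including haem bound to haemopexin, stood at 336 ± 36.8 CPM with β-elemene and 866 ± 15.5 CPM with PBS (SD, n = 3 each). Their log2 fold changes were -4.64, -2.95 and -1.36 (edgeR adjusted p of at most 1.73e-09). Cd5l and Stab2 did not pass (log2 fold changes 0.11 and -0.28, edgeR adjusted p = 0.716 and 0.331), though Stab2 was called lower with library size alone (-0.92, edgeR adjusted p = 0.00458). The 8 genes not tested held at most 34 counts over the 6 libraries.

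**Figure D4:**
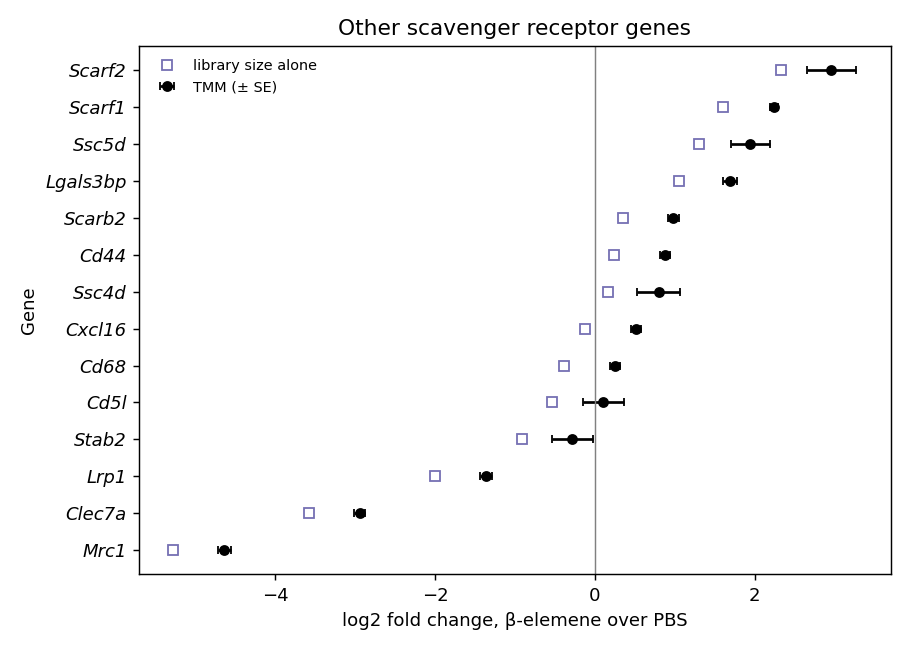
Log2 fold changes, β-elemene over PBS, of the 14 tested genes of the wider scavenger receptor list, with SE bars under TMM (filled points) and with library size alone (open squares). Scarf2, which passed the filter only through the β-elemene group, is highest at 2.96 and Mrc1 lowest at -4.64 under TMM. Cxcl16, Cd68 and Cd5l lie on opposite sides of 0 under the 2 scalings.

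The counts of called genes in the related lists that follow stand against the same 76.7% of all genes, 36.6% higher and 40.2% lower, and none is read as particular to its list. Of the ligands and opsonins of the receptors, 10 of 17 tested genes were higher and 7 lower. Thbs1, which encodes the CD36 ligand thrombospondin 1, rose to 772 ± 81.9 CPM with β-elemene, against 6.55 ± 3.75 CPM with PBS (log2 fold change 6.88, SE 0.39, edgeR adjusted p = 1.22e-05). Hp, haptoglobin, rose to 266 ± 48.4 CPM with β-elemene, against 8.52 ± 0.661 CPM with PBS (log2 fold change 4.96). Sparc, a stabilin-1 ligand, fell to 0.433 ± 0.215 CPM with β-elemene, against 5.05 ± 0.456 CPM with PBS (log2 fold change -3.51). Sparc held only 21 counts with β-elemene and 390 with PBS (SE 0.29), and passed the filter only through the PBS group. Fn1, fibronectin, fell by 2.07 on the log2 scale.

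Among genes of receptor signalling, trafficking and shedding, 13 of 20 tested were higher, 5 lower and 2 did not pass. Tlr2, a co-receptor in CD36 and MARCO signalling, and Cav1, the caveolae protein, rose by log2 fold changes of 4.73 and 4.30. Fyn, a kinase downstream of CD36, and the sheddase Adam10 fell by 1.12 and fell by 1.44. Of 19 transcription factors of scavenger receptor genes, 10 were higher, 8 lower and 1 did not pass. Maf and Klf2 rose by 2.80 and 2.96, while Cebpa, a myeloid lineage factor, stood at -3.99. Klf2 held only 147 counts with β-elemene and 30 with PBS (SE 0.32), and passed the filter only through the β-elemene group.

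Of 15 lipoprotein and cholesterol genes, 7 were higher, 6 lower and 2 did not pass. Acsl1, which activates fatty acids, rose by 3.83. Npc1, which exports cholesterol from lysosomes, and Abca1, which exports it from the cell, had log2 fold changes of -1.86 and -1.65. Of 13 haemoglobin and haem genes, 7 were higher, 3 lower and 3 did not pass. Hp is given above, Hpx, haemopexin, rose by 2.94, and Bach1, the haem-sensing repressor, stood at -1.50, as Lrp1 did at -1.36. Hpx held only 97 counts with β-elemene and 20 with PBS (SE 0.38), and passed the filter only through the β-elemene group. With library size alone the counts of higher and lower genes were 5 and 7 for ligands, 8 and 10 for signalling, 6 and 8 for transcription factors, 3 and 8 for lipoprotein genes and 5 and 7 for haem genes. The medians of those 5 lists were 0.46, 0.42, 0.47, 0.11 and 0.34 with TMM, and -0.17, -0.22, -0.17, -0.53 and -0.30 with library size alone.

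Markers of the labelled cell type were present, with all 10 macrophage markers tested and a summed level between 16719.5 and 17273 CPM with β-elemene and between 13588 and 14593 CPM with PBS, led by Lyz2. Of these 10, 7 were higher and 3 lower. With library size alone 4 were higher and 5 lower, and the order of the sums turned, with 13367.5 to 14029.5 CPM for β-elemene, against 17098 to 18107 CPM for PBS. The marker counts here and below stand against 76.7% of all genes called, 36.6% higher and 40.2% lower. With library size alone, 18.9% of all genes were higher and 69.8% lower. None of the counts is read as a result about a cell type, and some markers passed the filter only through 1 group. Scarb1, Stab1, Cd36 and Colec12 are also genes of endothelium. Of 10 endothelial markers 5 were tested, with Kdr and Cdh5 higher, Pecam1 and Vwf lower and Tie1 not passing. Their summed level was 160.2 to 217 CPM with β-elemene and 98.4 to 102 CPM with PBS, most of it Kdr with β-elemene and Vwf with PBS, and Tek, Emcn and Cldn5 had 0 counts in the β-elemene group and at most 4 in the PBS group. Of 8 adipocyte markers, a cell type rich in Cd36, 3 were tested and all 3 were lower. Their sum was 28.1 to 33.6 CPM with β-elemene and 40.0 to 52.1 CPM with PBS, most of it Fabp4. Fabp4 is also in the list of receptor signalling, trafficking and shedding genes used above, so this sum is not read as adipocyte signal. Adipoq and Cfd had 0 counts in the β-elemene group, and 74 and 114 in the PBS group. Both passed the filter only through the PBS group. Fibroblast markers summed to 31.2 to 38.0 CPM with β-elemene and 28.6 to 34.2 CPM with PBS, led by Pdgfrb with β-elemene and by Postn with PBS, and 1 of 7 tested (Pdgfrb, log2 fold change 3.06) was higher, 3 were lower and 3 did not pass, while library size alone gave 1 higher and 6 lower. The part of these cell types in the receptor values was not tested.

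The remaining marker lists, of cell types a culture could also hold, summed to less than the macrophage list. Epithelial and carcinoma markers summed to 0.552 to 0.586 CPM with β-elemene and 1.16 to 1.64 CPM with PBS, led by Muc1, with 1 gene tested and lower and with Krt19, Cldn4, Sftpc and Nkx2-1 at 0 counts in all libraries. Neutrophil markers summed to 34.6 to 50.3 CPM with β-elemene and 21.7 to 23.6 CPM with PBS, led by S100a8 with β-elemene and by Mmp8 with PBS (4 of 7 higher, 1 lower). Dendritic cell markers summed to 5.60 to 14.9 CPM with β-elemene and 5.03 to 5.71 CPM with PBS, led by Ccr7 with β-elemene and by Zbtb46 with PBS (3 of 5 higher, 1 lower). Of the higher ones, Clec9a and Btla held 75 and 52 counts with β-elemene, against 17 and 3 with PBS. Both passed the filter only through the β-elemene group. T and NK cell markers summed to 37.7 to 47.1 CPM with β-elemene and 12.9 to 13.0 CPM with PBS, led by Lck (1 of 2 higher). B cell markers summed to 31.7 to 37.6 CPM with β-elemene and 31.6 to 40.0 CPM with PBS, led by Cd22 (1 of 2 lower). Mast cell and basophil markers summed to 152 to 191 CPM with β-elemene and 6.68 to 15.5 CPM with PBS, led by Hdc, a gene that activated macrophages also express (1 of 2 higher), while Fcer1a had 0 counts.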

How the data were processed

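RNA was sequenced from 6 macrophage samples as stranded poly(A) libraries, per the labels' protocols. Reads were aligned with HISAT2 2.2.1.0 per the submitters' processing notes, which list GRCm38.p6 and mm10 as builds. The values deposited by the authors are unnormalised counts of reads for each gene. How reads were counted, and whether by strand, is not given in the sources used here. Of 21878 genes, 6562 had no count. Symbols that a spreadsheet had turned into dates (27) were restored from gene identifiers.

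Low counts were removed by filterByExpr (at least 10 counts, 15 in total), and libraries were scaled with TMM (β-elemene factors 0.794 to 0.812, PBS factors 1.24 to 1.26) and compared with edgeR 4.0.16 in R 4.3.3 (robust quasi-likelihood, group only, 4 residual degrees of freedom), with Benjamini-Hochberg adjustment over 11459 genes at 0.05. The procedure was tested on simulated data in which a small set of genes was changed in both directions. That setting cannot test the scaling where most genes are called, as here. Alternatives were other scalings and filters, DESeq2 1.42.0, limma-voom (limma 3.58.1), a replicate block and leaving out each library. Gene lengths came from GENCODE M21.

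Replicates of a group differed by more than counting noise (chi-square per degree of freedom 3.80 to 13.5). The receptors and gene lists were chosen with earlier results of these data known. Genes named were the 8 receptors, all called genes of the wider receptor list at 1 CPM or more on average, the 2 largest rises and falls of each other related list (2 of these genes are not reported here), the most abundant gene of each marker list, and the 3 nearest profiles to Cd36 and Olr1 (those to Marco are left out, since the pseudocount sets its PBS values). Nt5dc2, the marker genes given as counts, directions or the highest of 1 group, and Cd5l and Stab2 were named after their values were seen. Intervals and limits for low counts cover counting error only, since reads carry no molecular identifiers.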

Additional observations from a re-analysis of the deposited data

How the results depend on the processing

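Under the 14 alternative fits, Marco, Msr1, Scarb1, Olr1 and Stab1 kept their direction and their side of the threshold. Where a filter was used, Marco passed it only through its β-elemene libraries. Colec12 turned to -0.10 with upper quartile scaling and -0.42 with library size alone, and Cd36 to -0.35 and -0.67, where it passed the threshold. Cd36 was at 0.00 (0.0042) with median-of-ratios size factors and with DESeq2. The scalings that moved Colec12 also move all genes, with medians of -0.37 and -0.70. The counts of called genes stayed within 1.5 times, at 8368 (without PBS replicate 1) to 10169 (library size alone) of all genes and 6 or 7 of the receptors. The split did not, with 18.9% of genes higher and 69.8% lower with library size alone and 2947 genes higher and 6528 lower with upper quartile scaling, against 36.6% (4189) higher and 40.2% (4602) lower with TMM. Without PBS replicate 1, which held 2 of its 3 PBS counts, the share of Marco in the reads of the 8 genes was 0.000593% with PBS, against 0.00112% with all PBS libraries. Fitted without a filter, Cd163 stood at -2.80. Without each library in turn, the log2 fold changes ranged over 6.13 to 7.46 (Marco), 1.83 to 1.92 (Msr1), 0.18 to 0.28 (Colec12, highest adjusted p = 0.0428), -0.10 to 0.00 (Cd36), -1.11 to -0.92 (Scarb1), -2.62 to -2.40 (Olr1) and -1.51 to -1.35 (Stab1). Libraries share replicate numbers between groups, but same-numbered libraries deviated together with correlations of only -0.0190, 0.0884 and 0.0488, and not every library correlated best with its own number. With a replicate block, 8793 genes and 6 receptors were called, and no receptor's call changed.

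Levels per length moved as follows, in CPM per kilobase. Scaled by library size alone, the β-elemene libraries averaged 258 for Msr1, 16.1 for Colec12, 469 for Cd36, 3.14 for Scarb1, 8.74 for Olr1 and 7.88 for Stab1, and the PBS libraries 108 for Msr1, 21.6 for Colec12, 749 for Cd36, 9.85 for Scarb1, 77.6 for Olr1 and 33.0 for Stab1. With the longest transcript, the β-elemene libraries averaged 560.4 for Msr1, 21.9 for Colec12, 10.8 for Scarb1, 12.6 for Stab1 and 618 for Cd36, and the PBS libraries 152 for Msr1, 18.8 for Colec12, 21.7 for Scarb1, 34.0 for Stab1 and 634 for Cd36. Depth limits Marco with PBS and Cd163 with β-elemene, where single counts decide the value.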
